A study of Mus musculus with 6 samples.

Results

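Collagens, laminins and integrins encode the extracellular matrix and the receptors by which cells hold on to it. The genes described here were taken from the table of Alkbh1 knockout (KO) against wild-type (WT) mouse embryonic stem (ES) cells by symbol, as collagen chains, laminin chains, integrin subunits, nidogens (Nid1 and Nid2), perlecan (Hspg2), agrin (Agrn), fibronectin (Fn1) and Sparc. Of 91 rows with such a symbol, 53 had been tested by the authors, out of 14095 tested genes in all. Only the name matched for 4 of the 53, which encode other proteins, and 49 matrix and receptor genes remained. The remaining 38 rows had not been tested. For integrins, symbols with a number or the letter v, l, m or x were taken, so subunits named with other letters were not counted. The rule used symbols and the test status. It was set with earlier results of these data known, so the choice was not blind to the difference between the genotypes.

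All libraries came from cells of the TT2 line, on a background of C57BL6 and CBA, at passage 5, and were grown without feeder cells. KO cells carried a knockout of Alkbh1, a dioxygenase gene of the AlkB family, and came from 2 clones with 2 libraries each, so 4 libraries in all. WT cells were unmodified TT2 cells with 2 libraries. The deposited table gives 1 FPKM value for KO and 1 for WT (fragments mapped to a gene, per kilobase of its transcript and relative to all mapped fragments), so no library has a value of its own, the values below carry no SD and depth is unknown. Clone and genotype cannot be told apart in this design, and in pooled RNA fewer cells of a type and less RNA per cell cannot be told apart either. A gene is called here where the authors' q is under 0.05, and "fold" is the KO over the WT FPKM. The targeted gene Alkbh1 was listed at 18.1 FPKM in KO and 33.9 FPKM in WT, which is 53.4% of the WT level, with q = 0.0943 in the authors' deposited table.

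A basement membrane is a thin sheet of matrix on which epithelial and many other cells rest. Laminins, trimers of an alpha, a beta and a gamma chain, form one network of the sheet and type IV collagen the other, with nidogens and perlecan between them. Fibrillar collagens form the rope-like fibres of connective tissue instead. Integrins, pairs of an alpha and a beta subunit, bind laminins, collagens or fibronectin outside the cell and connect them with the actin cytoskeleton. In the early mouse embryo, laminin and integrin beta 1 are needed for the first basement membrane and for epiblast organisation.

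Matrix and receptor genes were mostly higher in KO. The authors called 29 of the 49 genes higher and 2 lower, and 18 were not called. Over all tested genes 22.4% were called higher and 28.4% lower, together 50.8%, and among these 49 genes the shares were 59.2% higher and 4.08% lower. The KO level was above the WT level in 44 of the 49, also in 15 of the 18 genes without a call. The median log2 fold change was 0.69, against -0.06 over all tested genes. Of the 29 higher genes, 15 were at least 2-fold higher. The lower genes were the integrin gene Itgb5 and the collagen gene Col6a5.

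**Figure D1:**
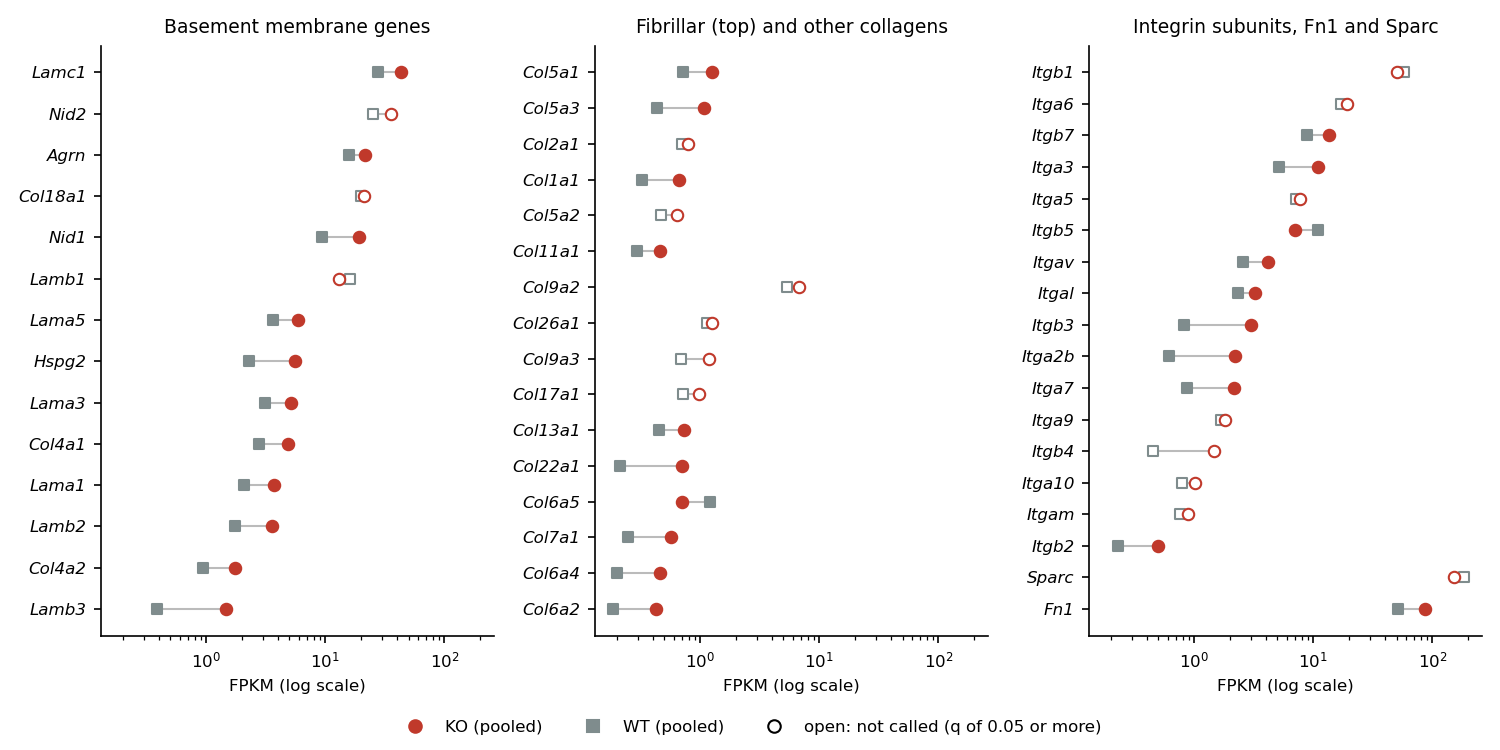
Level of the tested genes named in the text in FPKM on a log scale, with circles for KO and squares for WT (1 pooled value each, no error bars), and open symbols for genes that were not called. Circles lie to the right of squares for all genes shown except Itgb1, Itgb5, Lamb1, Sparc and Col6a5, of which Itgb5 and Col6a5 were called lower.

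Level and transcript length moved with this difference. Across all tested genes the median log2 fold change was 0.69 in the lowest decile by mean FPKM and -0.72 in the highest, and it was -0.46 in the shortest decile by transcript length and 0.44 in the longest. The matrix and receptor genes were long and mostly low. Of the 49, 31 fell in the 2 longest deciles and 36 lay under the median level of 7.57 FPKM. Tested genes that fall in the same classes of level and length had been called higher in 43.2% and lower in 14.5%, weighted by the members' classes. Against the median of its own class, the median member stood 0.33 higher on the log2 scale, and 35 of the 49 lay above it. Summed over the tested genes, FPKM came to 624340 in KO and 981679 in WT. With both totals set equal, every log2 fold change would be 0.65 higher, and Itgb5 would stand at 0.02.

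**Figure D2:**
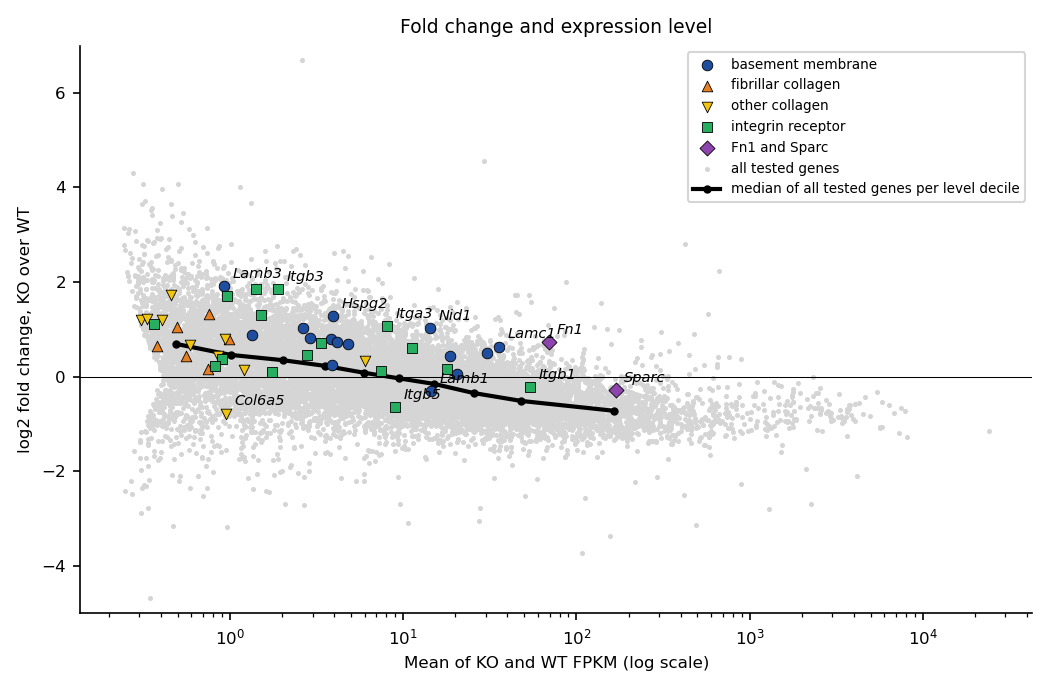
KO over WT log2 fold change against the mean FPKM (log scale), with 1 point per tested gene. Coloured points are the matrix and receptor genes, grey points all other tested genes with values above 0, and the black line joins the medians of all tested genes in 10 deciles of level, from 0.69 to -0.72. Fn1, Lamc1, Nid1 and Itga3 lie above that line, Itgb5 and Col6a5 below it.

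Basement membrane genes had the highest share of higher calls among the 4 classes of members. Of 15 tested, 11 were called higher, none lower and 4 were not called, which is 73.3% higher, where genes of the same level and length classes had 39.3%. Fibrillar collagens had 4 of 6 higher (66.7%), close to the 62.3% of their level and length classes. Integrin subunits had 8 of 16 higher and 1 lower (50%, against 39.0%), and the remaining collagens 5 of 10 higher and 1 lower (50%, against 51.6%). The medians of the 4 classes as measured were close together, with log2 fold changes of 0.73, 0.73, 0.53 and 0.74 in the same order. Set against the median of their own level and length class, they were 0.45 for basement membrane genes, -0.13 for fibrillar collagens, 0.33 for integrins and 0.30 for the remaining collagens. The difference between these classes was not tested, since the table has no value per library.

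**Figure D3:**
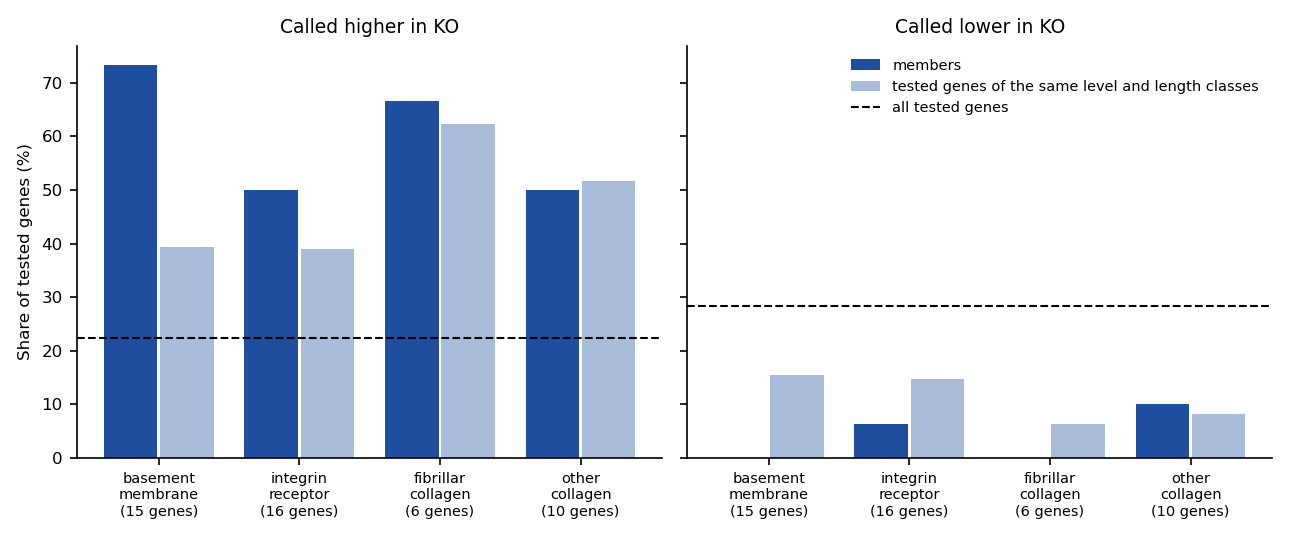
Share of tested genes (in %) called higher in KO (left) and lower in KO (right) in 4 classes of members, beside the share among tested genes of the same level and length classes and a dashed line for all tested genes (22.4% and 28.4%). The basement membrane bar reaches 73.3% beside 39.3%, while the fibrillar collagen bar reaches 66.7% beside 62.3%.

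Both chains of the common type IV collagen rose. Col4a1 was at 4.87 FPKM in KO and 2.80 FPKM in WT, 1.74-fold higher, and Col4a2 at 1.75 FPKM in KO and 0.945 FPKM in WT, 1.86-fold higher (q = 0.000206 for each in the authors' deposited table). The trimer of this collagen holds more alpha 1 than alpha 2 chains, and Col4a1 was 2.78 times the Col4a2 level in KO and 2.96 times in WT. The chains Col4a3 to Col4a6 of specialised basement membranes were not tested, and none of them passed 0.1 FPKM in either genotype. The genes Col4a1 and Col4a2 are neighbours on opposite strands of chromosome 8, with starts that lie 21 bases apart in the RefSeq sequences. Each start lies inside the other gene there, so the first bases of the transcripts overlap. Their promoter windows, from 250 bases before to 50 after the start, are shown because these members share a promoter region and both rose. Capitals mark a GC box (GGGCGG or CCGCCC) or a CCAAT box (CCAAT or ATTGG), 5′ to 3′ on the gene's own strand.
Col4a1: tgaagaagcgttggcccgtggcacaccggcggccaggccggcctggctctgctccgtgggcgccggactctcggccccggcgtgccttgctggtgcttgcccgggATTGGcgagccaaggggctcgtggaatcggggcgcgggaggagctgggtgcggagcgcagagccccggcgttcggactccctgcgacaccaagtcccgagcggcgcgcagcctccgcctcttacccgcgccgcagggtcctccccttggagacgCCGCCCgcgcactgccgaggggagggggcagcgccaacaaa
Col4a2: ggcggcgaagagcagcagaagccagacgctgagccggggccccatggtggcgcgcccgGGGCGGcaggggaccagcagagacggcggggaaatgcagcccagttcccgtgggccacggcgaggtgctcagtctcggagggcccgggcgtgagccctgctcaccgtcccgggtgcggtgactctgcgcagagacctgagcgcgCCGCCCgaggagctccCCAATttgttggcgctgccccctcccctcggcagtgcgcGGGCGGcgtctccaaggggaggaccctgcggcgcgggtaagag
The Col4a1 window is chr8:11312777-11313076 on the minus strand and the Col4a2 window chr8:11312555-11312854 on the plus strand (GRCm38.p6), and 78 bases are common to both. The Col4a1 window holds 1 GC box and 1 CCAAT box, the Col4a2 window 3 and 1, and neither holds TATAAA or its reverse complement TTTATA. The GC box of the Col4a1 window lies in the common bases and is also 1 of the 3 counted for Col4a2. A GC box occurs in 35.7% of all 32851 RefSeq promoter windows, a CCAAT box in 37.4% and a TATAAA in 13.6%. Windows were found for 31 of the 49 genes. Of their 36 windows, 25 (69.4%) held a GC box, 11 (30.6%) a CCAAT box and 2 (5.56%) a TATAAA. These shares were not set against windows of tested genes alone.

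All tested laminin alpha chains and the gamma chain Lamc1 rose, while the main beta chain Lamb1 was not called. Among the alpha chains, Lama5, whose product is a main laminin of ES cells and the blastocyst, was at 5.90 FPKM in KO and 3.67 FPKM in WT (1.61-fold, q = 0.00039 in the authors' deposited table). Lama1, the alpha chain of the first embryonic laminin, was at 3.68 FPKM in KO and 2.10 FPKM in WT (1.75-fold), and Lama3, the alpha chain of epithelial laminin-332, at 5.20 FPKM in KO and 3.13 FPKM in WT (1.66-fold). All 3 were called higher, with folds from 1.61 to 1.75.

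The gamma chain Lamc1 (chromosome 1, 155066051 to 155179916, mm9), shared by most laminins, was the most abundant laminin transcript at 43.5 FPKM in KO and 27.96 FPKM in WT, 1.56-fold higher.

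Lamb1, the beta chain of the embryonic laminins, was at 13.0 FPKM in KO and 16.0 FPKM in WT, without a call (q = 0.0967 in the authors' deposited table). The other beta chains, at lower levels, rose, with Lamb2 at 3.55 FPKM in KO and 1.73 FPKM in WT (2.05-fold). Lamb3, the beta chain of laminin-332, was at 1.47 FPKM in KO and 0.387 FPKM in WT, and its 3.78-fold difference was the largest among the 15 basement membrane genes. Summed over tested chains, alpha chains came to 14.8 FPKM in KO and 8.89 FPKM in WT (1.66-fold) and beta chains to 18.1 FPKM in KO and 18.2 FPKM in WT (0.994-fold). Lamb1 made up 72.2% of the beta chain sum in KO and 88.3% in WT.

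**Figure D4:**
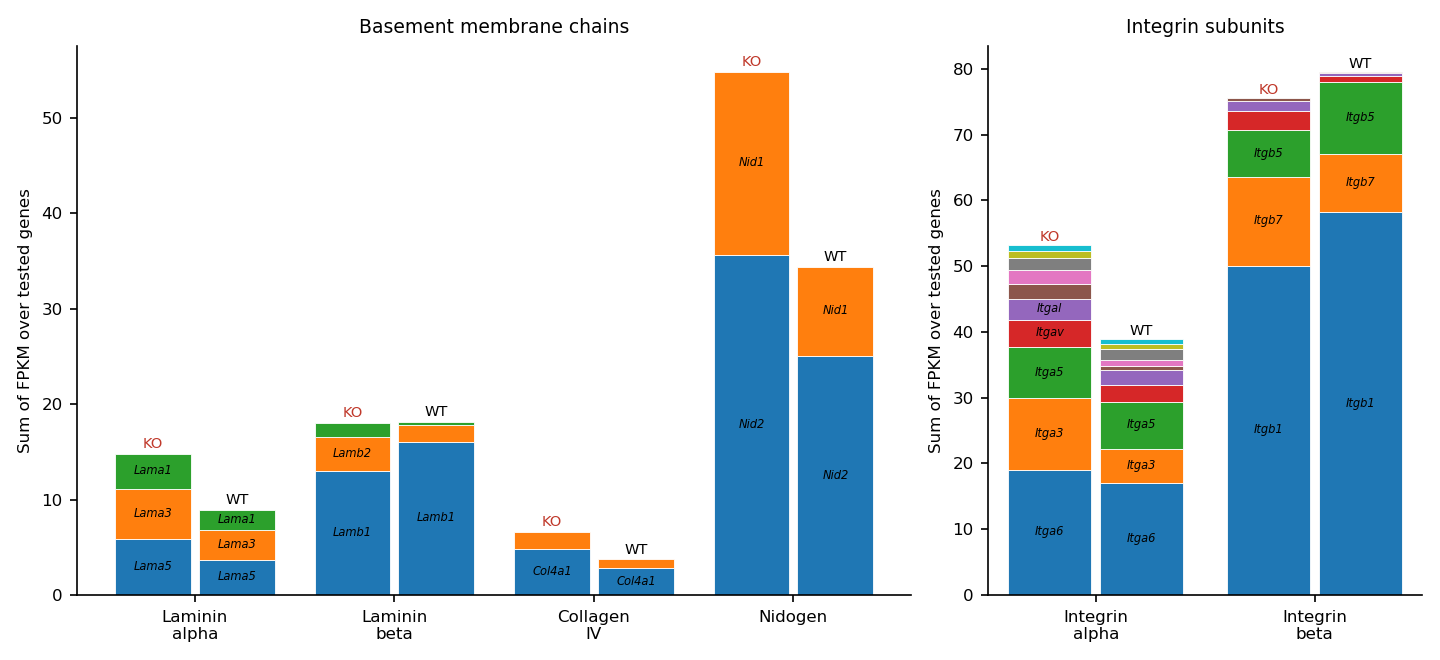
Sum of FPKM over the tested genes of each chain type, as stacked bars with KO left of WT and 1 segment per gene (thin segments are unlabelled). The laminin alpha, type IV collagen and nidogen bars are taller in KO, the laminin beta bars are nearly equal at 18.1 FPKM in KO and 18.2 FPKM in WT, and the integrin beta bar is shorter in KO.

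Of the proteins that tie the networks together, perlecan and nidogen 1 rose most. Hspg2 (chromosome 4, 137024717 to 137126545, mm9) encodes perlecan, a large heparan sulphate proteoglycan, and was at 5.60 FPKM in KO and 2.30 FPKM in WT, 2.44-fold higher. Nid1 (chromosome 13, 13529868 to 13604542, mm9), which links laminin to type IV collagen, was at 19.2 FPKM in KO and 9.37 FPKM in WT, 2.04-fold higher. Nid2, its relative, was at 35.7 FPKM in KO and 25.03 FPKM in WT. That difference of 1.42-fold was not called (q = 0.235 in the authors' deposited table). Agrn, a proteoglycan that also organises nerve-muscle synapses, rose by less, to 21.4 FPKM in KO, against 15.7 FPKM in WT (1.36-fold, q = 0.00835 in the authors' deposited table). Col18a1, the collagen from which endostatin is cut, was nearly level at 20.96 FPKM in KO and 20.1 FPKM in WT, with q = 0.769 in the authors' deposited table. The promoter windows of the largest differences among these linkers follow, with the same capitals.
Hspg2: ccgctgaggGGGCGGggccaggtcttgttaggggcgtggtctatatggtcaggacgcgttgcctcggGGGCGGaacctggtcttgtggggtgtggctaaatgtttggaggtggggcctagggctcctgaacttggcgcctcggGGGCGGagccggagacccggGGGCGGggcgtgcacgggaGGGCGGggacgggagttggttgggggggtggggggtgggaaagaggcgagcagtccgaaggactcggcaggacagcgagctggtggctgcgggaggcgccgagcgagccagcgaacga
Nid1: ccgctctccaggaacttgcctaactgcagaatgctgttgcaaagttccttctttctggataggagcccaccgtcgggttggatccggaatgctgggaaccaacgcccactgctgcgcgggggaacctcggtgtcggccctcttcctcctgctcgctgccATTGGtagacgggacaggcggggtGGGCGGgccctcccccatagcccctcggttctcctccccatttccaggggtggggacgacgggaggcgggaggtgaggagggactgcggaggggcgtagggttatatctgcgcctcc
The Hspg2 window, chr4:137468553-137468852 on the plus strand (GRCm38.p6), holds 5 GC boxes and no CCAAT box. The Nid1 window, chr13:13437352-13437651 on the plus strand, holds 1 GC box and 1 CCAAT box.

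The fold of Nid2 exceeded that of the called gene Agrn. The authors' test statistic was 0.83 for Nid2 and 1.76 for Agrn in the authors' deposited table. Nid2 is listed with the joined region of an overlapping tested gene, 2700060E02Rik (chromosome 14, 20570478 to 20643045, mm9), which was at 218 FPKM in KO and 473 FPKM in WT. The members with the other largest uncalled differences, Itgb4 and Col9a3, likewise shared a listed region with a more abundant gene. Whether the overlap bears on their tests was not tested.

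Fibrillar collagens were low in both genotypes, from 0.464 to 1.26 FPKM in KO and from 0.294 to 0.721 FPKM in WT. Col5a3 and Col5a1 encode chains of type V collagen, which sets the width of fibrils. Col5a3 was at 1.09 FPKM in KO and 0.434 FPKM in WT (2.50-fold), and Col5a1 at 1.26 FPKM in KO and 0.721 FPKM in WT (1.75-fold). Col1a1, a chain of the main collagen of bone and skin, rose to 0.664 FPKM in KO, against 0.322 FPKM in WT (2.06-fold, q = 0.000722 in the authors' deposited table). Its partner Col1a2 was not tested, at 0.0383 FPKM in KO and 0.0416 FPKM in WT. Col11a1, a cartilage collagen gene, rose to 0.464 FPKM in KO, against 0.294 FPKM in WT (q = 0.0146 in the authors' deposited table). Col2a1 of cartilage, at 0.791 FPKM in KO and 0.706 FPKM in WT, and Col5a2, at 0.643 FPKM in KO and 0.471 FPKM in WT, were not called. The 6 genes summed to 4.91 FPKM in KO and 2.95 FPKM in WT, while the 15 basement membrane genes summed to 189.98 FPKM in KO and 134.8 FPKM in WT.

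Among the remaining collagens, the only tested gene above 2 FPKM was Col9a2, a fibril-associated collagen, which was at 6.77 FPKM in KO and 5.33 FPKM in WT without a call (q = 0.0983 in the authors' deposited table). Col6a5 was the only collagen called lower, at 0.700 FPKM in KO and 1.20 FPKM in WT, while its neighbour Col6a4 on chromosome 9 was higher at 0.463 FPKM in KO and 0.199 FPKM in WT. Both encode chains of type VI collagen, which forms beaded filaments, as does Col6a2, which rose to 0.426 FPKM in KO, against 0.186 FPKM in WT. Col22a1, a collagen of tissue junctions, was at 0.701 FPKM in KO and 0.212 FPKM in WT, 3.31-fold higher. Col7a1, which encodes the anchoring fibrils under the epidermis, was at 0.564 FPKM in KO and 0.246 FPKM in WT, and the transmembrane collagen gene Col13a1 at 0.727 FPKM in KO and 0.454 FPKM in WT, both called higher. Not called were Col9a3, at 1.20 FPKM in KO and 0.686 FPKM in WT, Col17a1, a collagen of hemidesmosomes, at 0.983 FPKM in KO and 0.724 FPKM in WT, and Col26a1, at 1.25 FPKM in KO and 1.14 FPKM in WT.

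The fibronectin gene rose and Sparc was not called. Fn1 (chromosome 1, 71632046 to 71699808, mm9) encodes fibronectin, the glycoprotein that integrin alpha 5 beta 1 binds, and was at 86.4 FPKM in KO and 51.9 FPKM in WT, 1.66-fold higher (q = 0.000206 in the authors' deposited table). Its log2 fold change was 0.74 in the authors' deposited table, and the median of the genes in its decile of level was -0.51. Sparc, which encodes a collagen-binding protein abundant in parietal endoderm, was the most abundant of the 49 genes at 152 FPKM in KO and 185 FPKM in WT, without a call (q = 0.113 in the authors' deposited table). Of the 11 members with a mean of 10 FPKM or more, 5 were called higher and none lower, where genes of their level and length classes had 13.5% higher and 37.7% lower.

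The beta subunits of integrins moved in different directions. Itgb1, the partner of most alpha subunits and the most abundant integrin transcript, was at 50.04 FPKM in KO and 58.2 FPKM in WT without a call (q = 0.22 in the authors' deposited table). Itgb5 (chromosome 16, 33829750 to 33949424, mm9), which pairs with alpha v to bind vitronectin, was called lower, at 7.07 FPKM in KO and 10.99 FPKM in WT, 0.643-fold (q = 0.000722 in the authors' deposited table). Itgb3 (chromosome 11, 104469313 to 104531785, mm9), which also pairs with alpha v, was 3.62-fold higher at 2.98 FPKM in KO and 0.824 FPKM in WT. It thus made up 3.94% of the beta sum in KO and 1.04% in WT, while Itgb5 made up 9.35% in KO and 13.8% in WT. Itgb7, known from lymphocytes, rose to 13.6 FPKM in KO, against 8.86 FPKM in WT (q = 0.000881 in the authors' deposited table). Itga4, a partner gene of Itgb7, was not tested, at 0.336 FPKM in KO and 0.214 FPKM in WT. Itgb4, which binds laminin in hemidesmosomes with alpha 6, was at 1.47 FPKM in KO and 0.450 FPKM in WT, and its 3.26-fold difference was not called (q = 0.0906 in the authors' deposited table). Galk1, which shares its listed region, was at 69.7 FPKM in KO and 59.2 FPKM in WT.

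None of the 10 tested alpha subunits was called lower, and 5 were called higher. These shares were 0% lower and 50% higher, against 11.3% and 43.3% in their level and length classes. Itga2b, the partner of beta 3 on platelets and early blood cells, was at 2.22 FPKM in KO and 0.611 FPKM in WT, 3.64-fold higher and near the 3.62-fold of Itgb3. Of the laminin receptors, Itga3 was at 10.9 FPKM in KO and 5.20 FPKM in WT (2.10-fold), and Itga7, known from muscle, at 2.15 FPKM in KO and 0.870 FPKM in WT (2.47-fold). Itga6, the most abundant alpha subunit and also a laminin receptor, was at 19.02 FPKM in KO and 17.03 FPKM in WT without a call (q = 0.399 in the authors' deposited table), so the ratio of Itga6 to Itga3 was 1.74 in KO and 3.27 in WT. Itgav, which binds fibronectin and vitronectin, rose to 4.19 FPKM in KO, against 2.55 FPKM in WT (1.64-fold). The fibronectin receptor gene Itga5, at 7.75 FPKM in KO and 7.10 FPKM in WT, was not called (q = 0.543 in the authors' deposited table).

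The leukocyte integrin gene Itgal was at 3.22 FPKM in KO and 2.35 FPKM in WT and was called higher (q = 0.0292 in the authors' deposited table). Its partner Itgb2 was at 0.499 FPKM in KO and 0.231 FPKM in WT, also called higher, and Itgam, another partner of Itgb2, at 0.885 FPKM in KO and 0.756 FPKM in WT without a call. Itga9, at 1.82 FPKM in KO and 1.69 FPKM in WT, and the collagen receptor gene Itga10, at 1.02 FPKM in KO and 0.785 FPKM in WT, were not called. In sum, alpha subunits came to 53.2 FPKM in KO and 39.0 FPKM in WT (1.37-fold), and beta subunits to 75.6 FPKM in KO and 79.6 FPKM in WT (0.95-fold). The promoter windows of Itga2b and Itgb5 are shown as those of the tested integrin genes with the largest rise and with the only lower call, with capitals as above.
Itga2b: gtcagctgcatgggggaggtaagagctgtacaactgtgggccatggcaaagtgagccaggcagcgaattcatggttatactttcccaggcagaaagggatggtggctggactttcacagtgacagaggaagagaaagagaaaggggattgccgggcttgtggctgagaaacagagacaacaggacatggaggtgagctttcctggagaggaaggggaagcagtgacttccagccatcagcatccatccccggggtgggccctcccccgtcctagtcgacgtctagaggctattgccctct
Itgb5: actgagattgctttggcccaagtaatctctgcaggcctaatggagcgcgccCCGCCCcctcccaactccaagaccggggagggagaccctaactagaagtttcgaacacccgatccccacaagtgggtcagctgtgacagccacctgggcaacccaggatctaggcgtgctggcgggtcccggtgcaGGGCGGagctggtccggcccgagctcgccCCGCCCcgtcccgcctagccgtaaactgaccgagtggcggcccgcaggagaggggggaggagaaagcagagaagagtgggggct
The Itga2b window, chr11:102469834-102470133 on the minus strand (GRCm38.p6), holds none of the motifs searched and 6 CG dinucleotides, near the median of 7 over all windows. The Itgb5 window, chr16:33829415-33829714 on the plus strand, holds 3 GC boxes and 20 CG dinucleotides.

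Of the 4 genes matched by name only, 2 were called lower and none higher. Genes of their level and length classes had 20.9% lower and 20.2% higher, and all tested genes 28.4% and 22.4%. Itgb1bp1, whose product binds the tail of integrin beta 1, was at 11.02 FPKM in KO and 16.9 FPKM in WT, and Itgb3bp, a centromere protein gene, at 3.88 FPKM in KO and 5.97 FPKM in WT, and both were called lower. Col4a3bp, a ceramide transfer gene, was at 10.4 FPKM in KO and 9.27 FPKM in WT, without a call. Itgb1bp2, known from muscle, was at 0.766 FPKM in KO and 0.802 FPKM in WT, also without a call. Asap2, which shares the listed region of Itgb1bp1, was at 3.69 FPKM in KO and 1.78 FPKM in WT.

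The 38 rows without a test were lower still, at most 0.388 FPKM in KO and 0.246 FPKM in WT. They comprised 8 basement membrane genes, 5 fibrillar collagens, 15 remaining collagens and 10 integrin genes. KO was above WT in 29 and below it in 8, and Itgbl1 was listed at 0 in both. Over all 9850 untested genes, KO was above WT in 73.7% of those that differed, close to the 78.4% here. Among the tested genes, 10 reached 1 FPKM only in KO and 1 only in WT, so which low genes enter a count can depend on the KO level.

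Genes that make, extend or bind the matrix were read from lists of related genes. Their shares are read against 22.4% higher and 28.4% lower over all tested genes and against genes of their own level and length classes. Of 24 tested genes of collagen synthesis and cross-linking, 11 were called higher (45.8%, against 24.9% in their classes) and 5 lower (20.8%, against 28.2%). Among those reaching 1 FPKM, the largest folds were those of the collagen prolyl hydroxylase genes P4ha2, at 22.0 FPKM in KO and 7.92 FPKM in WT, and P4ha1, at 16.7 FPKM in KO and 7.58 FPKM in WT. The prolyl isomerase gene Ppib fell to 89.7 FPKM in KO, against 160.1 FPKM in WT, and the procollagen enhancer gene Pcolce2 to 6.81 FPKM in KO, against 12.1 FPKM in WT. Of 12 further basement membrane components, 9 were called higher (75%, against 43.0% in their classes) and 2 lower (16.7%, against 11.0%). Tinagl1, which encodes a secreted matrix protein, was at 2.75 FPKM in KO and 0.433 FPKM in WT, and Npnt, which encodes a ligand of integrin alpha 8, at 1.80 FPKM in KO and 0.532 FPKM in WT. The called lower genes were Ntn1, at 0.578 FPKM in KO and 1.07 FPKM in WT, and Egfl6, at 2.22 FPKM in KO and 3.24 FPKM in WT. The median log2 fold change was 0.18 for collagen synthesis and 1.05 for the further components, against -0.06 over all tested genes. Relative to the median of their level and length class, these medians were 0.09 and 0.51.

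The integrin adhesion complex comprises the proteins that join integrins to actin. Of its 23 tested genes, 8 were called higher (34.8%, against 24.3% in their classes) and 1 lower (4.35%, against 25.4%). Tns1, a tensin gene, was at 5.57 FPKM in KO and 2.03 FPKM in WT. The lower gene was Tns3, another tensin, at 20.2 FPKM in KO and 26.2 FPKM in WT. Of 17 matrix receptors other than integrins, 6 were called higher (35.3%, against 28.0% in their classes) and 4 lower (23.5%, against 24.7%). The endocytic receptor gene Lrp1 was at 4.35 FPKM in KO and 0.734 FPKM in WT, and the collagen receptor gene Ddr2 at 1.18 FPKM in KO and 0.504 FPKM in WT. The glypican gene Gpc4 fell to 6.16 FPKM in KO, against 12.2 FPKM in WT. Rpsa, which encodes a laminin receptor that is also a ribosomal protein, fell to 1104 FPKM in KO, against 1818 FPKM in WT. Relative to the medians of their level and length classes, the log2 fold change was -0.89 for Gpc4 and 0.00044 for Rpsa. Of 20 matrix proteases and inhibitors, 10 were called higher (50%, against 35.8% in their classes) and 3 lower (15%, against 15.3%). Adamts9, a protease gene, was at 2.21 FPKM in KO and 0.830 FPKM in WT, and the inhibitor gene Timp2 at 3.80 FPKM in KO and 2.05 FPKM in WT. The inhibitor gene Timp1 fell to 18.4 FPKM in KO, against 34.7 FPKM in WT, and the membrane protease gene Mmp14 to 1.88 FPKM in KO, against 3.22 FPKM in WT. The median log2 fold changes of these 3 lists were 0.14, 0.10 and 0.47, and relative to their level and length class 0.16, 0.00044 and 0.11.

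**Figure D5:**
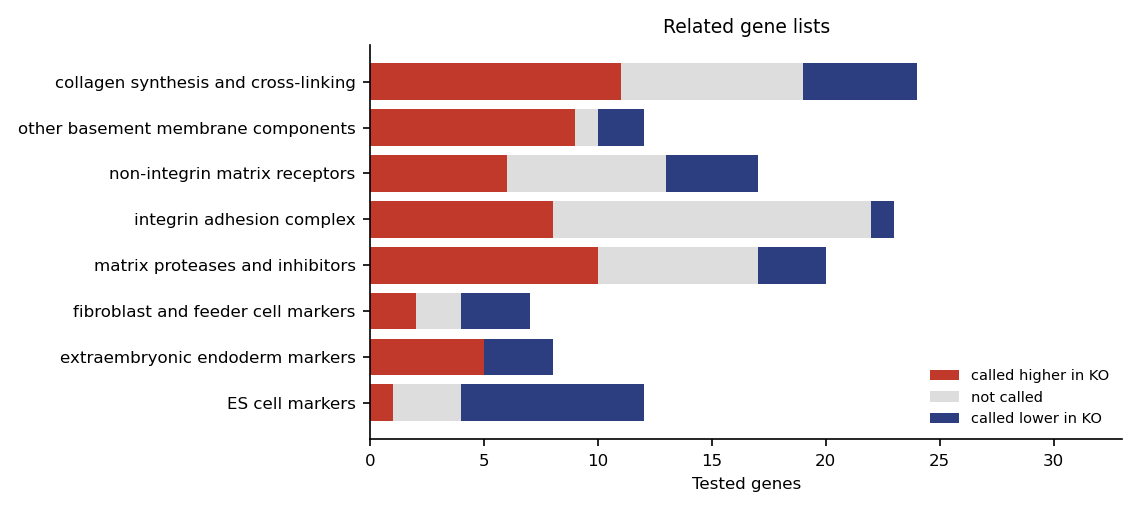
Number of tested genes called higher in KO, not called and called lower in KO in 8 lists of related genes and cell markers. Higher calls make up 9 of 12 for further basement membrane components and 1 of 12 for ES cell markers.

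Markers of ES cells and of other cell types were read beside these results. ES cell markers were present, as the 12 listed genes summed to 4252 FPKM in KO and 7075 FPKM in WT. Of these genes, 8 were called lower (66.7%) and 1, Tfcp2l1, higher (8.33%). Genes of the same level and length classes had 63.9% lower and 4.10% higher. The median ES cell marker stood 0.04 above the median of its class. The 16 extraembryonic endoderm markers, whose cells are rich in laminin and type IV collagen, summed to 7.05 FPKM in KO and 7.59 FPKM in WT, and 12 stayed under 1 FPKM in both. Of 8 tested, 5 were called higher (62.5%, against 44.1% in their level and length classes) and 3 lower (37.5%, against 6.89%). Gata6, a defining factor of that lineage, was not tested at 0.260 FPKM in KO and 0.196 FPKM in WT, and Gata4 was called higher at 0.557 FPKM in KO and 0.345 FPKM in WT. The 15 fibroblast and feeder markers summed to 36.3 FPKM in KO and 73.8 FPKM in WT. Of 7 tested, Pdgfrb and Thy1 were called higher (28.6%, against 24.8% in their level and length classes). Acta2, Twist1 and Vim were called lower (42.9%, against 20.4%). Of these called genes, Pdgfrb, Acta2 and Twist1 stayed under 1 FPKM in both genotypes. The median log2 fold change of the tested markers was -1.05, and -0.86 relative to their level and length class. Fap was listed at 0 in both genotypes, Lum and Postn stayed under 0.02 FPKM in both, and Vim fell to 22.0 FPKM in KO, against 61.4 FPKM in WT. The direction of the fibroblast sum rests on Vim, since the other 14 markers summed to 14.4 FPKM in KO and 12.4 FPKM in WT, a sum added after the values were seen. Thy1 made up most of that second sum, at 9.39 FPKM in KO and 6.43 FPKM in WT. The part of these cell types in the matrix differences was not tested.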

How the data were processed

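Libraries were made from total RNA with a strand-specific messenger RNA kit, per the labels' protocols, and aligned with TopHat2 to mouse build mm9, per the submitters' processing notes, with no annotation named. Per the file headers, the deposited table is laid out like Cuffdiff output and holds 1 FPKM value per genotype. It also holds, as deposited by the authors, a log2 fold change (KO over WT), a test statistic used here as a score, a p-value and its q-value. The smallest p-value was 5e-05, shared by 21 of the 31 called members, which all have q = 0.000206 and cannot be ranked by it.

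No test was run anew. Genes were called at q under 0.05, and FPKM ratios, counts, medians and sums were computed with Python 3.11.15, NumPy 2.4.6 and pandas 2.3.3. Levels are means of KO and WT FPKM. Lengths are those of the longest GENCODE M21 transcript of each symbol, found for 13987 tested genes (99.2%) and all 49 members. Level and length classes were formed from 5 bins by level and 4 by length, and the centring was tested on simulated data. Every tested member reaching 1 FPKM in either genotype is named, as are called members under it. Of each related list, up to 2 called genes in each direction are named; 1 such member and 1 such list gene are not reported here. Others named there, and untested genes, were chosen after their values were seen. Members and lists were chosen with earlier results of these data known. Positions are mm9 as listed, promoter sequences RefSeq GRCm38.p6. The labels do not say whether libraries were separate cultures.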

Additional observations from a re-analysis of the deposited data

Results flagged for a closer look

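Among the 38 rows without a test, 4 reached 0.3 FPKM in KO and were at least 2-fold above WT. They lie outside the authors' test and enter the report only in the count of untested rows. These were Lama4, a laminin chain of blood vessels, at 0.318 FPKM in KO and 0.0950 FPKM in WT, and Itga8, the nephronectin receptor, at 0.344 FPKM in KO and 0.0460 FPKM in WT. The others were Col20a1, at 0.346 FPKM in KO and 0.0877 FPKM in WT, and Col23a1, at 0.388 FPKM in KO and 0.175 FPKM in WT. The threshold was chosen after the values were seen, and with 1 pooled value per genotype these differences have no replicate check.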

How the results depend on the processing

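No paired analysis was possible because the table holds no value per library, and for the same reason no library could be left out and depth sets no stated limit on any value. Counts of basement membrane genes called higher were kept within 1.5 times under q under 0.01 or 0.1, a mean of at least 1 FPKM and the omission of genes that overlap another; at least a 2-fold difference left 4 basement membrane genes, 2 fibrillar collagens and 5 integrins higher and no integrin or other collagen lower. At q under 0.1, 1 basement membrane gene (Lamb1) was lower. With a mean of at least 1 FPKM, 0 fibrillar and 0 other collagens were called higher and 0 other collagens lower, since the called ones lie under it. The median log2 fold changes of basement membrane genes, fibrillar collagens, integrins and other collagens became 1.39, 1.38, 1.18 and 1.39 with equal totals, and 0.453, -0.13, 0.33 and 0.304 relative to their level and length class, so that of the fibrillar collagens turned. Relative to the level decile alone, the medians were 0.153 for fibrillar and 0.3 for other collagens. With 1 FPKM added to each value they were 0.255 for fibrillar collagens, 0.307 for integrins and 0.276 for other collagens, and other collagens with a mean of at least 1 FPKM had 0.24. Among called members reaching 1 FPKM, Itgb5 alone changed sign over equal totals, the level decile and the added 1 FPKM, standing at 0.0156 with equal totals. Relative to the level and length class, Col5a1 (-0.056) and Itgal (-0.034), both called higher, also changed sign, and Col4a2 stood at 0.032. The medians of the other settings were within 1.5 times of those reported.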
